A study of Mus musculus with 27 samples.

Results

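Hprt, Gyk, Nsdhl, Renbp and Pcyt1b are X-linked genes of 5 branches of metabolism: purine salvage, glycerol use, sterol synthesis, amino sugar interconversion and phospholipid synthesis. They were chosen by name and by these roles, with earlier results of these data known. All 5 were present in both X tables used here, among 270 genes in 17 libraries (the Spen table) and among 254 genes in 10 libraries (the CIZ1 table). The tables share 248 genes and 4 libraries, so the data comprise 23 distinct libraries. The values are allelic ratios of chromatin-associated RNA, the RNA that stays with chromatin when nuclei are extracted and that is rich in transcripts still being made.

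The cells were female mouse embryonic stem (ES) cells of a 129S X Cast background, in which sequence differences between the strains let reads be assigned to one X chromosome or the other. In all lines used here, per the labels, a doxycycline-inducible TetOn promoter stood in place of the Xist promoter on the 129S X, and a Bgl stem-loop had been added at the Xist 3' end. The titles name the WT line BglHalo_10H and also carry BglHalo for CIZ1KO and SpenKO. The labels of these lines do not spell out the Halo part. The groups were the parental line (WT), a CIZ1 knockout (CIZ1KO), a line labelled SpenKO that the series text calls SpenRRM, and lines that carry a mutation in the SPOC domain of Spen (SPOCmut). Each was sampled without doxycycline (0 h, 2 libraries, 3 for SPOCmut) and after 24 h at 1.0 to 1.5 µg/mL (2 libraries, 3 for SPOCmut). WT was also sampled at 3 h (2 libraries) and SpenKO at 3 h (1 library). WT and CIZ1KO were also sampled as neural precursor cells (NPC) at day 30 (1 library each), and the sources used here do not say if doxycycline was added to these cultures. ES cells grew on mitomycin-inactivated fibroblast feeders. The 3 SPOCmut replicates are the clones C10, C2 and G1, while the labels name no further clone of any other line, so a line and its genotype cannot be told apart. Nothing in the labels says that the other replicates were separate cultures, so p-values reflect how far these libraries vary, which can be technical variation only.

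The ratio was taken to be the share of 129S among the reads of a gene that could be assigned to an allele, because Xist, which the labels place under induction on 129S, lay between 0.933 and 0.999 in every library of the Spen table. A ratio of 0.5 is an equal share of both X chromosomes. A lower ratio is a smaller share from the X that carries the inducible Xist, and since the tables hold no expression levels, less RNA from that X and more RNA from the Cast X cannot be told apart. In these bulk samples, fewer silenced cells and less RNA per cell cannot be told apart either. The files hold no read counts, so the depth behind each ratio is unknown. Over all 270 genes the median ratio per library lay between 0.504 and 0.523 without doxycycline, and at 0.291 and 0.305 in the 2 WT libraries at 24 h. The targeted genes themselves could not be checked, as neither Spen nor Ciz1 is listed in the 2 tables.

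X inactivation balances the X gene dose of XX and XY mammals. Xist RNA spreads in cis over the chromosome that makes it, and SPEN, a protein that binds Xist, silences genes there through its SPOC domain, which contacts corepressors. CIZ1 is a nuclear matrix protein that anchors Xist RNA. X-linked enzyme genes are classical readouts of this process: Hprt in particular has long been used to follow X inactivation, since cells with and without its product can be separated by selection in culture, and mutations of Nsdhl give female mice a patchy coat.

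Promoter sequences are shown for 3 of the genes to set their CpG content beside the responses described further on. They come from the RefSeq promoter table of GRCm38.p6, run from 250 bases before to 50 bases after the annotated start, and are printed 5′ to 3′ on the gene's strand with each CG dinucleotide in capitals. All 5 genes matched an entry, Gyk under its present symbol Gk. The Hprt window is chrX:52987828-52988127 on the plus strand, the Gyk window chrX:85776770-85777069 on the minus strand, and the first of 2 Pcyt1b windows chrX:93654613-93654912 on the plus strand.
Hprt: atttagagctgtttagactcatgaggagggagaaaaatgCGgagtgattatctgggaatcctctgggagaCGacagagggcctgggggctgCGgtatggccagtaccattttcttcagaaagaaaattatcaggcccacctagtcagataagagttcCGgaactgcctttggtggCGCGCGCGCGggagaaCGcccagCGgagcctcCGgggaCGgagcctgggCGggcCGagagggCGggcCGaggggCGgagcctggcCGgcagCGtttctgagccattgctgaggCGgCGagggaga
Gyk: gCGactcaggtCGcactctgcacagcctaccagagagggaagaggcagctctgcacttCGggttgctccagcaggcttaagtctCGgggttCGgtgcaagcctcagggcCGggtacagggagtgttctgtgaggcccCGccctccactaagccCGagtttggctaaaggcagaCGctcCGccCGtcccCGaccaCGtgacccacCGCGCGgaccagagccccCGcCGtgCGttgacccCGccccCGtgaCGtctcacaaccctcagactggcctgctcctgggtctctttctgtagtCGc
Pcyt1b: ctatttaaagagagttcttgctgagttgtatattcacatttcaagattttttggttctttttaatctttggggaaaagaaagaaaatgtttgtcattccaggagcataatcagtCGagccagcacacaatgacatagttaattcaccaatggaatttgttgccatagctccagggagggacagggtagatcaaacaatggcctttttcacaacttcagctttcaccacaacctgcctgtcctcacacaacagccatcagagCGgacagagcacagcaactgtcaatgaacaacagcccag

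The Hprt window held 22 CG dinucleotides, more than 76.9% of the 32851 windows in the table, and the Gyk window held 23, more than 78.5%. Nsdhl also held 23, and Renbp held 8, close to the median of 7. The Pcyt1b window shown held only 2, with 14.1% of windows holding fewer, and its second window 9. The GC box GGGCGG, searched on both strands, occurred 3 times each in the Hprt and Gyk windows, 2 times in Renbp, 1 time in Nsdhl and not in either Pcyt1b window, against 35.7% of all windows with at least 1. None of the 5 genes' windows held GCCATNTT (the YY1 core, in 6.05% of windows), the NRF1 motif (4.6%), TGACGTCA (CRE, 1.79%), TCACNCCAC (sterol regulatory element, 1.24%) or TATAAA (13.6%). The CpG-rich Gyk window and the CpG-poor first Pcyt1b window belong to the 2 genes with the largest changes among the 5 in WT at 24 h. The second Pcyt1b window held more CG dinucleotides than 54.2% of windows, and which start these cells use is not known. Hprt, with about as many CG dinucleotides as Gyk, had a smaller change. A relation between CpG content and the changes was not tested. These matches describe the letters of the windows only.

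Without doxycycline, 4 of the 5 genes were expressed about equally from both X chromosomes and Gyk was not. Gyk encodes glycerol kinase, which phosphorylates glycerol so that it can enter glycolysis or lipid synthesis. Its ratio was 0.704 and 0.666 in the 2 WT libraries, 0.670 and 0.692 in SpenKO, and 0.738, 0.717 and 0.728 in the SPOCmut clones C10, C2 and G1. The mean over these 7 libraries was 0.702, the 12th highest of 270 genes. Gyk overlaps the antisense gene Gm14764 and the processed pseudogene Gm14767, and the strand setting of the counting is not given in the sources used here, so its ratio can include reads of either. The other 4 genes had means over the same 7 libraries of 0.545 (Hprt), 0.508 (Pcyt1b), 0.502 (Renbp) and 0.471 (Nsdhl). In untreated WT the order was Gyk, Hprt, Nsdhl, Renbp and Pcyt1b, and the libraries of neighbours in this order did not overlap. The last 3 places did not hold in the other lines. Untreated SpenKO, SPOCmut and CIZ1KO each ran Gyk, Hprt, Pcyt1b, Renbp and Nsdhl by group mean, with overlapping libraries of Pcyt1b and Renbp. No gene of the table, and so none of the 5, passed the test between untreated lines (percent called 0 for SpenKO, SPOCmut and CIZ1KO against WT in either direction, limma with Benjamini-Hochberg adjustment). At an unadjusted p under 0.05, 22 genes differed in SpenKO, 34 in SPOCmut and 16 in CIZ1KO, among them Pcyt1b in all 3 lines and Nsdhl and Gyk in SPOCmut. These 3 comparisons share the same 2 WT libraries, so they are not separate observations. Pcyt1b was 0.480 and 0.449 in those libraries, lower than in any untreated library of the other lines.

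**Figure D1:**
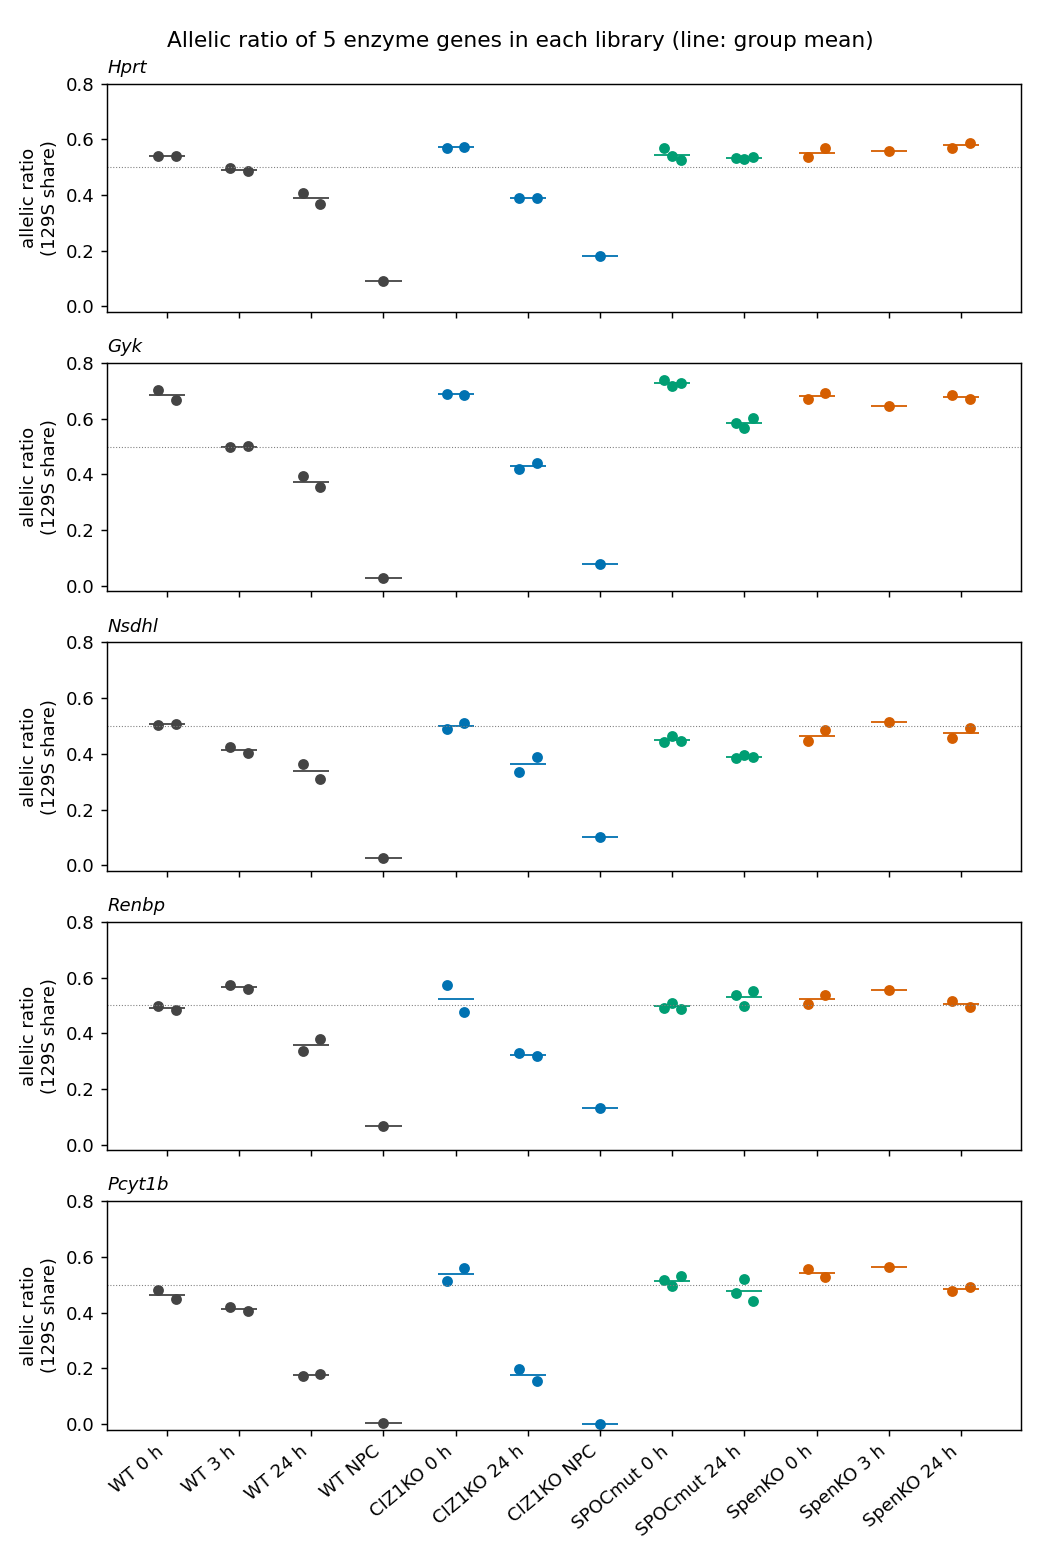
Allelic ratio (129S share, 0 to 0.8) of each gene in each library, 1 panel per gene, with groups along the horizontal axis. Points are libraries and short lines group means; the dotted line marks 0.5. Gyk starts near 0.7 where the other genes start near 0.5, and all 5 are lower in WT and CIZ1KO at 24 h and lowest in NPC.

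After 3 h of doxycycline in WT, the 5 genes did not move together: Gyk and Nsdhl fell, Renbp rose, and Hprt and Pcyt1b did not pass the test. Gyk was 0.497 and 0.502 at 3 h, well below both untreated libraries (0.704 and 0.666), a change of -0.186 ± 0.0175 (SE, n = 2 against 2; adjusted p = 3.93e-05, limma). This was the 6th most negative change of 270 genes and took the Gyk ratio from a 129S excess to near equality. Nsdhl, a dehydrogenase of the late steps of cholesterol synthesis, was 0.425 and 0.405 against 0.505 and 0.506 untreated. It changed by -0.0904 ± 0.0196 (n = 2 against 2; limma adjusted p = 0.00684).

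Renbp, the epimerase that interconverts N-acetylglucosamine and N-acetylmannosamine, moved the other way at 3 h. It was 0.571 and 0.557 against 0.498 and 0.484, a rise of 0.0734 ± 0.0200 (n = 2 against 2; limma adjusted p = 0.0210), the 22nd most positive of 270 changes. Both treated libraries lay above both untreated ones. This call was lost without any 1 of the 4 libraries: the limma adjusted p was 0.0591 without WT 0 h replicate 1, 0.101 without WT 0 h replicate 2, 0.111 without WT 3 h replicate 1 and 0.0531 without WT 3 h replicate 2, and it ranged from 0.0216 to 0.111 over all 9 alternatives. Hprt, the hypoxanthine and guanine salvage enzyme, was 0.496 and 0.486 against 0.541 and 0.539, a difference of -0.0486 ± 0.0172 (n = 2 against 2; limma adjusted p = 0.0655). Pcyt1b, the beta isoform of the enzyme that sets the rate of phosphatidylcholine synthesis, was 0.421 and 0.406 against 0.480 and 0.449 (-0.0514 ± 0.0223, n = 2 against 2; limma adjusted p = 0.132). Both treated libraries of both genes were below the untreated ones, without passing the test.

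Thus 2 of the 5 genes fell at 3 h, where 17.0% of all genes did, and 1 rose, where 5.19% did. The all-gene median change was -0.0205. With a fit on the 4 libraries compared alone, none of the 3 calls remained (limma adjusted p = 0.0513 for Gyk, 0.0691 for Nsdhl and 0.0854 for Renbp). Over the 9 alternatives run, the adjusted p ranged from 4.05e-05 to 0.0513 for Gyk and from 0.00783 to 0.0691 for Nsdhl.

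By 24 h in WT all 5 genes had fallen, as had 88.9% of the table. Pcyt1b showed the lowest ratio, 0.174 and 0.180, a change of -0.288 ± 0.0223 (SE, n = 2 against 2; limma adjusted p = 4.87e-07). Gyk was 0.393 and 0.356, the largest change among the 5 at -0.310 ± 0.0175 (n = 2 against 2; limma adjusted p = 5.36e-08). These 2 genes stood below the median change of all genes (-0.197), Gyk 33rd and Pcyt1b 48th from the most negative of 270.

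The other 3 genes changed by less than the all-gene median. Hprt was 0.408 and 0.368 (-0.152 ± 0.0172, n = 2 against 2; limma adjusted p = 9.69e-06) and Nsdhl 0.365 and 0.311 (-0.168 ± 0.0196; adjusted p = 1.24e-05). Renbp was 0.338 and 0.379 (-0.133 ± 0.0200, n = 2 against 2; limma adjusted p = 9.12e-05), below its untreated libraries and further below its 3 h libraries. Among the 5, no gene's treated and untreated libraries overlapped, and all 5 calls stood under the 10 alternatives run for each. How many other genes of the table had no such overlap was not counted. At 24 h the ranges of Hprt and Gyk, of Gyk and Renbp, and of Renbp and Nsdhl overlapped, so the order of these 4 was not resolved, while Pcyt1b lay below all of them.

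Because Gyk starts higher, its change is also given as the odds of 129S to Cast reads, from a fit on the logit scale (the log of the ratio over 1 minus the ratio). At 24 h these odds were 27.5% of untreated for Gyk (95% interval 23.2 to 32.6) and 24.7% for Pcyt1b (20.2 to 30.2). They were 49.8% for Nsdhl (41.4 to 59.8), 54.0% for Hprt (46.2 to 63.2) and 57.9% for Renbp (48.2 to 69.4). On this scale too, the intervals of Gyk and Pcyt1b lay below those of the other 3, which overlapped each other.

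**Figure D2:**
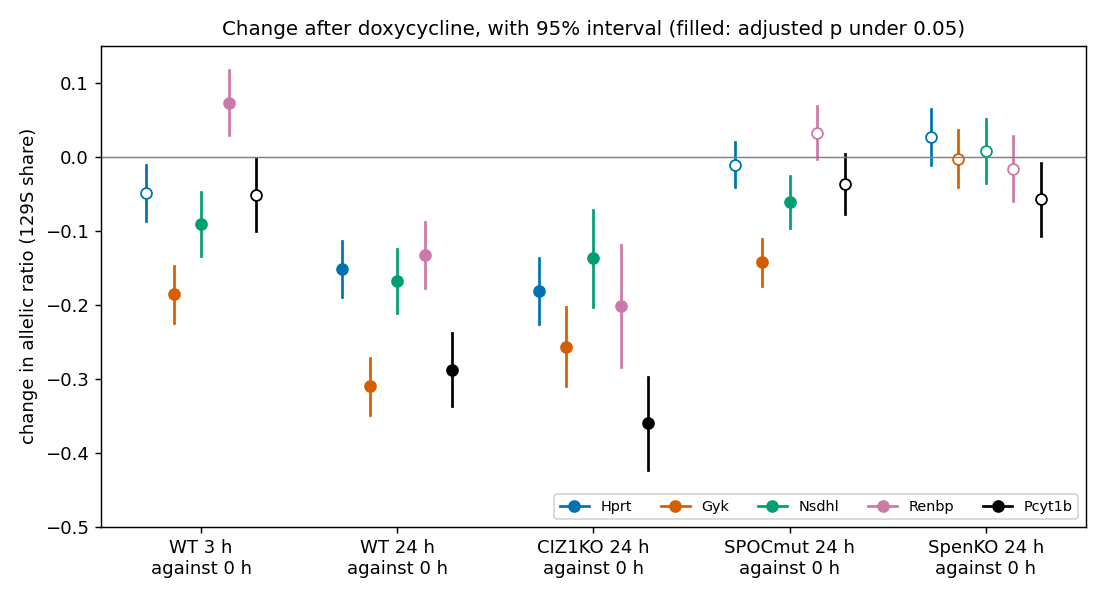
Change in allelic ratio (129S share) after doxycycline for each gene in 5 comparisons along the horizontal axis, as point and 95% interval from limma; filled points passed an adjusted p under 0.05. At 3 h Renbp lies above 0 and Gyk lowest; at 24 h all 5 lie below 0 in WT and CIZ1KO, only Gyk and Nsdhl are filled in SPOCmut, and none in SpenKO.

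The split between early and late change was described for each gene, without a test of differences among the genes. The 3 h change was 59.8% of the 24 h change for Gyk, 53.9% for Nsdhl, 32.0% for Hprt and 17.8% for Pcyt1b, and had the opposite sign for Renbp. Both changes rest on the same untreated libraries, and the shares are given without a test. Between 3 h and 24 h all 5 genes fell, where 85.6% of the table did: Pcyt1b by 0.237 ± 0.0223, Renbp by 0.206 ± 0.0200, Gyk by 0.125 ± 0.0175, Hprt by 0.103 ± 0.0172 and Nsdhl by 0.0773 ± 0.0196 (SE; limma adjusted p at most 0.00355). For Nsdhl this call was lost with the 4 libraries alone (adjusted p = 0.0605; range 0.000995 to 0.0605 over 9 alternatives). Leaving out 1 library at a time, the share by 3 h ran from 56.5% to 63.6% for Gyk, from 28.3% to 36.9% for Hprt and from 13.2% to 22.0% for Pcyt1b. For Nsdhl it ran from 46.5% (without WT 24 h replicate 1) to 64.1% (without WT 24 h replicate 2), so whether more of its change came before or after 3 h was not settled.

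**Figure D3:**
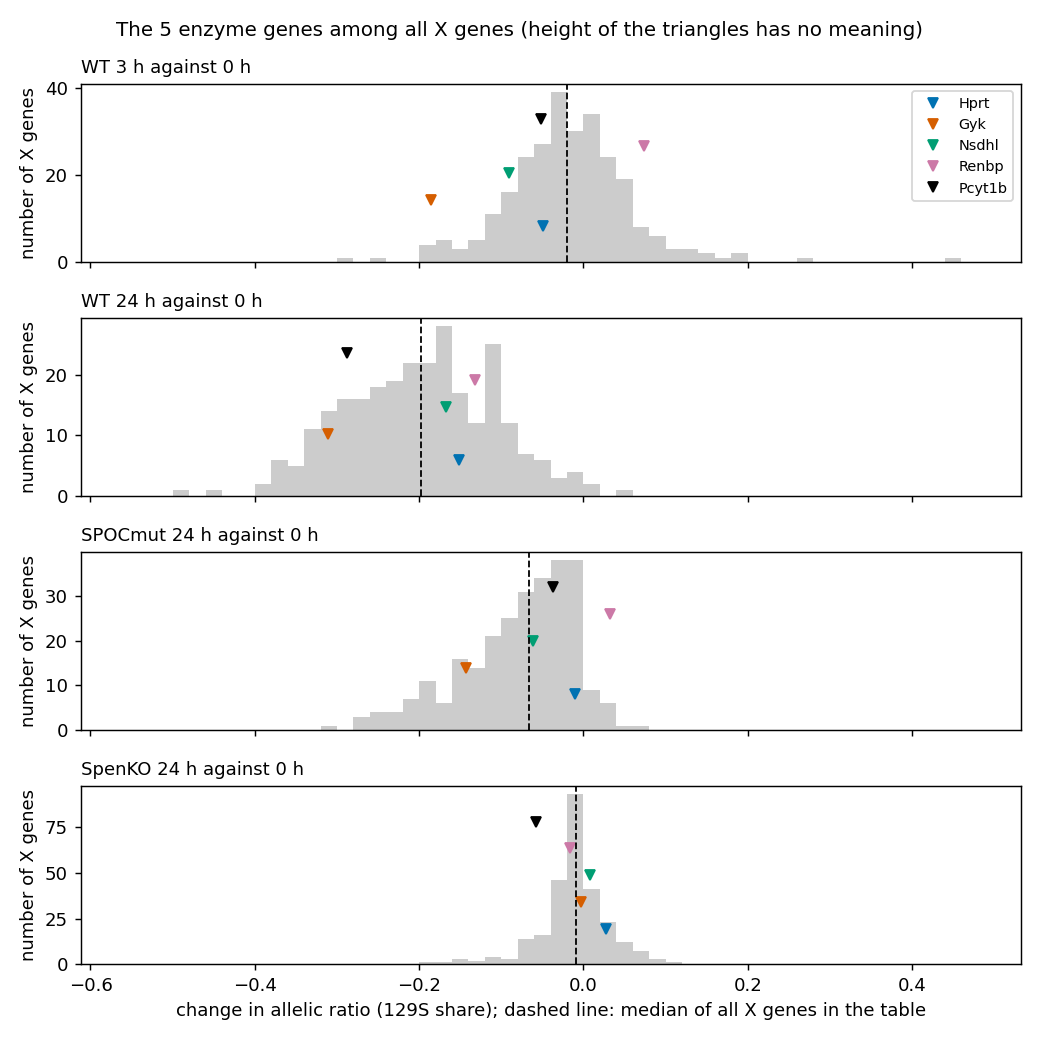
Histograms of the change in allelic ratio (129S share) over the 270 X genes in 4 comparisons, with dashed lines at the median and triangles at the 5 enzyme genes. Gyk lies left of the median at 3 h, at 24 h and in SPOCmut; Renbp lies on the right in those 3 panels.

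All 5 genes lie at lower coordinates than Xist, at distances of 9.83 Mb (Pcyt1b), 17.7 Mb (Gyk), 29.6 Mb (Renbp), 30.6 Mb (Nsdhl) and 50.5 Mb (Hprt) from the Xist start. In mm10, Pcyt1b spans chrX:93654863-93749948, Gyk chrX:85701937-85776819, Renbp chrX:73922121-73930850, Nsdhl chrX:72918521-72958528 and Hprt chrX:52988078-53021660, each taken over the whole gene. In WT at 24 h the 2 nearest genes had the largest changes and the other 3 the smaller ones. This order did not hold at 3 h, when Pcyt1b, the nearest, changed by less than Gyk and Nsdhl, nor between Renbp and Nsdhl, which lie about 1 Mb apart and moved in opposite directions at 3 h. With 5 genes no relation to distance was tested.

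**Figure D4:**
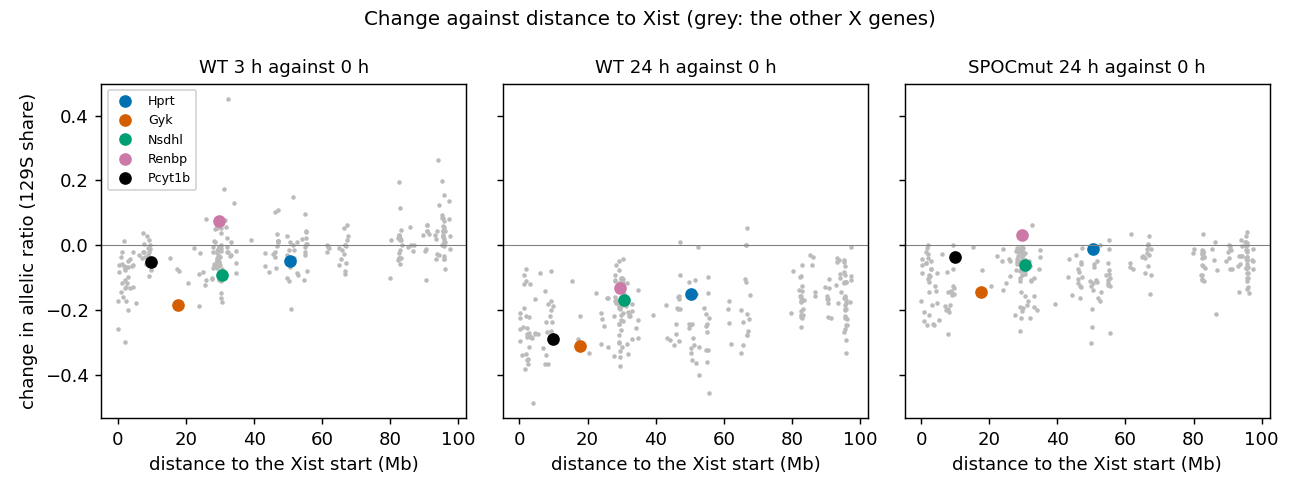
Change in allelic ratio (129S share) against distance to the Xist start in Mb, for WT at 3 h, WT at 24 h and SPOCmut at 24 h; grey points are the other X genes of the Spen table. Renbp and Nsdhl, side by side near 30 Mb, lie on opposite sides of 0 at 3 h and in SPOCmut, where Renbp did not pass the test.

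Each gene was also set beside the nearest measured gene on either side. Naa10, an N-terminal acetyltransferase gene 0.176 kb from Renbp, changed by -0.0518 ± 0.0268 at 3 h (limma adjusted p = 0.204). Hcfc1, a transcriptional coregulator gene 11.9 kb away on the other side, changed by -0.0583 ± 0.0188 (adjusted p = 0.0484), so neither neighbour rose at 3 h. At 24 h both had lower ratios than untreated, by 0.190 and 0.197, against 0.133 for Renbp. Around Gyk, Tab3 fell by 0.0794 at 3 h and by 0.218 at 24 h, less than Gyk at both times, while Nr0b1, 415 kb away, fell by 0.288 at 24 h. Pcyt1b lies between Pola1, the DNA polymerase alpha catalytic subunit, which fell by 0.186 at 24 h, and Pdk3, a pyruvate dehydrogenase kinase, which fell by 0.274. Next to Nsdhl, Cetn2 did not pass the test at 24 h (-0.150 ± 0.0873; adjusted p = 0.123) and Zfp185 fell by 0.233. Next to Hprt, Phf6 fell by 0.244 and C430049B03Rik fell by 0.331, both by more than Hprt. Differences between neighbouring genes were not tested.

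In CIZ1KO at 24 h all 5 genes fell, as did 85.0% of the 254 genes in the CIZ1 table. Pcyt1b went from 0.513 and 0.562 to 0.199 and 0.155 (-0.360 ± 0.0254, SE, n = 2 against 2; limma adjusted p = 0.000125). Gyk went from 0.690 and 0.685 to 0.419 and 0.443 (-0.257 ± 0.0218; adjusted p = 0.000158), and Renbp from 0.572 and 0.477 to 0.328 and 0.317 (-0.202 ± 0.0337; adjusted p = 0.00197). Hprt was 0.569 and 0.573 before and 0.390 in both libraries after (-0.182 ± 0.0181; adjusted p = 0.000254), and Nsdhl went from 0.488 and 0.510 to 0.336 and 0.387 (-0.137 ± 0.0264; adjusted p = 0.00366). For none of the 5 did treated libraries overlap untreated ones, which was not counted for the rest of the table. Pcyt1b was again the lowest of the 5.

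Whether CIZ1KO responded differently from WT was tested as the difference between the 24 h changes, and none of the 5 genes passed (percent called 0 in either direction). It was 0.0539 for Gyk (95% interval -0.0221 to 0.130), 0.0303 for Nsdhl (-0.0619 to 0.122) and -0.0298 for Hprt (-0.0930 to 0.0334). For Renbp it was -0.0693 (-0.187 to 0.0481) and for Pcyt1b -0.0724 (-0.161 to 0.0161), with limma adjusted p of at least 0.851 for each. At an unadjusted p under 0.05, 11 genes of the table but none of the 5 differed. With intervals that reach up to 0.130 (Gyk) and down to -0.187 (Renbp), these values do not show that the lines respond alike.

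In the SPOC mutant Gyk and Nsdhl fell at 24 h, while Hprt, Pcyt1b and Renbp did not pass the test, against 49.6% of all genes that fell. Gyk was 0.583, 0.568 and 0.604 in clones C10, C2 and G1 against 0.738, 0.717 and 0.728 untreated (-0.143 ± 0.0143, SE, n = 3 against 3; limma adjusted p = 1.39e-05). Nsdhl was 0.384, 0.397 and 0.387 against 0.441, 0.464 and 0.447 (-0.0614 ± 0.0160, n = 3 against 3; limma adjusted p = 0.00792). Every treated library of these 2 genes was below every untreated one, and how many other genes did the same was not counted.

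Hprt in the SPOC mutant was 0.535, 0.531 and 0.538 against 0.568, 0.540 and 0.526, overlapping groups with a difference of -0.0104 ± 0.0140 (n = 3 against 3; limma adjusted p = 0.556, 95% interval -0.0414 to 0.0207). Pcyt1b, with the second largest of the 5 changes in WT, was 0.472, 0.519 and 0.443 against 0.519, 0.495 and 0.530 (-0.0367 ± 0.0182, n = 3 against 3; limma adjusted p = 0.119), the C2 clone lying within the untreated range. Renbp was 0.538, 0.498 and 0.553 against 0.492, 0.510 and 0.489 (0.0329 ± 0.0163, n = 3 against 3; limma adjusted p = 0.119), the 5th most positive change of 270. Without the C2 library at 24 h, Pcyt1b (-0.0573; adjusted p = 0.0126) and Renbp (0.0486; adjusted p = 0.0269) both passed the test, in opposite directions. Over the 11 alternatives the adjusted p ran from 0.0126 to 0.388 for Pcyt1b and from 0.0269 to 0.335 for Renbp.

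As a share of the WT change, which is given without a test, the change in the SPOC mutant was 46.0% for Gyk, 36.6% for Nsdhl, 12.7% for Pcyt1b and 6.84% for Hprt, and had the opposite sign for Renbp. Leaving out 1 library at a time moved it from 43.3% to 49.0% for Gyk and from 31.6% to 43.6% for Nsdhl. For Hprt it moved from -0.891% (without clone C10 at 0 h) to 12.9% (without clone G1 at 0 h), and for Pcyt1b from 6.63% (without clone G1 at 24 h) to 19.9% (without clone C2 at 24 h), so these 2 shares are loosely fixed. All 5 genes differed between SPOCmut and WT in their 24 h response, where 58.5% of all genes did: Pcyt1b by 0.251 ± 0.0288, Gyk by 0.168 ± 0.0226, Renbp by 0.165 ± 0.0258, Hprt by 0.141 ± 0.0222 and Nsdhl by 0.106 ± 0.0253 (SE; limma adjusted p at most 0.00436). For Pcyt1b this was the 18th largest of 270. At 24 h itself, all 5 ratios were higher in SPOCmut than in WT, as were 78.9% of the table. The smallest gap was that of Nsdhl, 0.0514 ± 0.0179 (adjusted p = 0.0217). It no longer passed without WT 24 h replicate 2 (0.0246; adjusted p = 0.264), without the C2 library at 24 h (0.0477; adjusted p = 0.0549) or with the libraries compared alone (adjusted p = 0.0747), in a range of 0.00461 to 0.264 over 9 alternatives.

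The neighbours of the 3 genes that did not pass in the SPOC mutant were mixed. Phf6, 31.1 kb from Hprt, fell by 0.138 ± 0.0236 (limma adjusted p = 0.000676), while C430049B03Rik on the other side did not pass (-0.117; adjusted p = 0.124). Pdk3, 14.7 kb from Pcyt1b, fell by 0.132 ± 0.0149 (adjusted p = 3.07e-05). Pola1 on the other side of Pcyt1b fell by 0.0223 ± 0.00739 (adjusted p = 0.0268). Neither neighbour of Renbp passed, Naa10 at -0.0284 (adjusted p = 0.301) and Hcfc1 at -0.0355 (adjusted p = 0.0780). Next to Gyk, Nr0b1 fell by 0.144 and Tab3 fell by 0.0751. These differences between genes were not tested.

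In SpenKO none of the 5 genes passed the test at 24 h (limma), where 0.741% of the table fell and no gene rose. At an unadjusted p under 0.05, 19 genes of the table differed, among them Pcyt1b. Gyk was 0.686 and 0.671 against 0.670 and 0.692 untreated (-0.00235; 95% interval -0.0410 to 0.0363), overlapping groups. Hprt was 0.569 and 0.588 against 0.535 and 0.567 (0.0273; -0.0107 to 0.0653) and Nsdhl 0.455 and 0.492 against 0.447 and 0.485 (0.00806; -0.0353 to 0.0514). Renbp was 0.517 and 0.495 against 0.507 and 0.536 (-0.0159; -0.0602 to 0.0283). Pcyt1b was 0.478 and 0.491 against 0.556 and 0.529, the one gene of the 5 with both treated libraries below both untreated ones, and its difference of -0.0576 ± 0.0223 did not pass (n = 2 against 2; limma adjusted p = 0.475). How many other genes of the table separated in this way was not counted.

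The 24 h response of SpenKO differed from that of WT for all 5 genes, where 76.7% of the table did. The difference was 0.308 ± 0.0247 for Gyk, 0.230 ± 0.0316 for Pcyt1b, 0.179 ± 0.0243 for Hprt, 0.176 ± 0.0277 for Nsdhl and 0.117 ± 0.0283 for Renbp (SE; limma adjusted p at most 0.00328). At 24 h itself all 5 ratios were higher in SpenKO than in WT, as were 88.1% of the table. The SpenKO and SPOCmut comparisons with WT share the WT libraries. Set against each other directly, SPOCmut and SpenKO differed in the response of Gyk (-0.140 ± 0.0226; adjusted p = 0.00151), where 23.0% of genes fell by more in SPOCmut. For Nsdhl this difference was -0.0695 ± 0.0253 (adjusted p = 0.0718), and with the clone or replicate as a block it passed at adjusted p = 0.0473, in a range of 0.0473 to 0.242 over 15 alternatives. Hprt (-0.0377; 95% interval -0.0868 to 0.0114), Renbp (0.0488; -0.00836 to 0.106) and Pcyt1b (0.0209; -0.0428 to 0.0847) did not pass.

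The lone SpenKO library at 3 h gave 0.647 for Gyk, 0.513 for Nsdhl, 0.557 for Hprt, 0.557 for Renbp and 0.564 for Pcyt1b. None of these passed against untreated SpenKO (limma; at an unadjusted p under 0.05, 34 genes of the table and none of the 5), where 0.370% of genes fell and none rose. Of the 5, Gyk alone was below both of its untreated libraries, and Nsdhl, Renbp and Pcyt1b were above both of theirs. How many other genes of the table lay outside their untreated libraries was not counted. The 3 h response differed from that of WT for Gyk (0.152 ± 0.0277; adjusted p = 0.0153) and Nsdhl (0.137 ± 0.0310; adjusted p = 0.0433), where 2.59% of genes were called. For Renbp, higher than untreated in both lines, the difference was -0.0379 (95% interval -0.108 to 0.0320). These 2 calls assume that the lone library varies like the others. That of Gyk was lost without WT 0 h replicate 1 (adjusted p = 0.0738), without SpenKO 0 h replicate 1 (0.0596) and with the libraries compared alone (0.127), in a range of 0.0133 to 0.127 over 10 alternatives. That of Nsdhl was lost without WT 0 h replicate 1 (0.104) or 2 (0.0767), WT 3 h replicate 1 (0.0625) or 2 (0.110), or SpenKO 0 h replicate 1 (0.106), on the logit scale (0.0871), with a robust spread (0.0509) and with the libraries compared alone (0.136), in a range of 0.0427 to 0.136.

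In WT neural precursor cells the 129S share was close to 0. It was 0.0926 for Hprt, 0.0659 for Renbp, 0.0271 for Gyk, 0.0266 for Nsdhl and 0.00556 for Pcyt1b, beside a median of 0.0546 over 254 genes. Against WT ES cells at 24 h all 5 were lower (limma adjusted p at most 0.00326, with 1 NPC library assumed to vary like the other groups), as were 70.5% of genes, while 0.394% were higher. Hprt had the highest share and Pcyt1b the lowest, as did the group means in WT at 24 h.

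In CIZ1KO neural precursor cells Hprt was 0.180, Renbp 0.130, Nsdhl 0.101 and Gyk 0.0781, and Pcyt1b was listed at 0. All 5 were lower than in CIZ1KO at 24 h (limma adjusted p at most 0.00692), as were 76.0% of genes. The ratios of Hprt, Nsdhl, Renbp and Gyk were higher than in WT precursors by 0.0878, 0.0747, 0.0639 and 0.0511, beside 167 of 254 genes (65.7%) with a higher value in CIZ1KO. On the raw scale no gene passed (limma, percent called 0 in either direction; at an unadjusted p under 0.05, 48 genes and, of the 5, Hprt). On the logit scale, which stretches ratios near 0, the differences were 0.769 for Hprt, 1.11 for Gyk, 1.42 for Nsdhl and 0.749 for Renbp. Each passed there, as did many other genes of the table, so these passes are not particular to the enzymes. The logit counts over all genes are given further on, with the results that depend on the processing. Over the 3 alternatives the highest adjusted p was 0.177, 0.538, 0.413 and 0.629 for these genes. Each group is 1 library, so a difference between cultures and one between genotypes cannot be told apart.

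Other X-linked metabolic genes were counted from 5 lists by function. Of 36 measured genes other than the 5, 28 fell in WT at 24 h with a median change of -0.173, beside 88.9% and -0.197 over all genes. At 3 h, 7 fell and 4 rose, beside 17.0% and 5.19% of the table. These 3 h calls rest on the spread shared over all libraries: with only the libraries compared, 1 gene of the whole table was called lower and 1 higher, and this limit holds for each list gene named at 3 h in the next paragraphs. In SPOCmut 15 of the 36 fell and in CIZ1KO 29 of 34, beside 49.6% and 85.0% of the whole tables. By list, with the 5 genes included, 9 of 10 lipid genes, 9 of 9 sugar and glycosylation genes, 8 of 12 mitochondrial and energy genes, 5 of 6 amino acid and redox genes and 2 of 4 purine and nucleotide genes fell in WT at 24 h.

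Among the lipid genes, Ebp, the sterol isomerase that acts in the same pathway as Nsdhl, rose by 0.199 ± 0.0316 at 3 h (limma adjusted p = 0.00137) and did not pass at 24 h (-0.0506; adjusted p = 0.148). Nsdhl had the opposite sign at 3 h (-0.0904), and the difference between the 2 genes was not tested. Awat2, a wax ester synthase gene, fell by 0.199 at 3 h and by 0.281 at 24 h, close to Gyk. Among the sugar genes, Ogt, the O-GlcNAc transferase, fell by 0.0631 at 3 h and fell by 0.110 at 24 h. Phka1, a phosphorylase kinase subunit, fell by 0.143 at 3 h and fell by 0.337 at 24 h. Of the 9 sugar genes, Renbp alone was called higher at 3 h, and that call was lost when any single library compared was left out. Apart from Ogt and Phka1, the rest did not pass at 3 h. Hs6st2, a heparan sulfate sulfotransferase, had the largest change of the list at 24 h (-0.364), and Ssr4 the smallest (-0.102).

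In the energy list Atp6ap2 and Ndufb11 rose at 3 h by 0.0634 and 0.116, while Pdk3 fell by 0.0765 and Atp6ap1 fell by 0.0665. Slc25a43 had the largest change there at 24 h (-0.275 ± 0.117, SE) and Atp6ap1 the smallest (-0.0485). Pdk3 changed by -0.274 ± 0.0182, so which gene changed most was not resolved. In the amino acid and redox list the arginine transporter gene Slc7a3 fell by 0.173 at 3 h and fell by 0.366 at 24 h, while Cybb, an NADPH oxidase subunit, rose by 0.263 at 3 h and did not pass at 24 h (-0.0873; limma adjusted p = 0.276). Nudt10 had the smallest change of the purine list at 24 h (-0.00468 ± 0.0857, SE, limma adjusted p = 0.965), beside Hprt at -0.152 ± 0.0172. The error of Nudt10 is wide, and the difference between these genes was not tested. Of 8 measured feeder fibroblast markers, 7 fell in WT at 24 h, beside 88.9% of the table, with a median change of -0.286 beside -0.197. The tables hold no expression levels, so the amount of feeder RNA was not tested.

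The genes whose changes over the 5 treated ES groups of the Spen table were most like those of each enzyme were found by the root mean square difference. They were Rbm10 (0.0189) and Ddx3x (0.0207) for Hprt, Yipf6 (0.0193) and Mtcp1 (0.0242) for Nsdhl, and Zdhhc9 (0.0221) and Ftsj1 (0.0253) for Renbp. For Pcyt1b they were Gm10474 (0.0199) and Mcf2 (0.0207), and for Gyk Dmd (0.0340) and Awat2 (0.0343). The median difference to all genes was 0.0663 for Hprt, 0.0676 for Nsdhl, 0.0823 for Renbp, 0.0771 for Pcyt1b and 0.109 for Gyk. Ftsj1, like Renbp, was higher at 3 h (0.0837) and lower at 24 h (-0.0813), and Dmd, like Gyk, changed by -0.116 at 3 h and -0.332 at 24 h. These changes were among the values used to pick the genes, so the likeness follows from the choice. Among the 5 enzymes the most alike pair was Hprt and Nsdhl (0.0365) and the least alike Gyk and Renbp (0.164).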

How the data were processed

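Allelic ratios of chromatin-associated RNA were analysed from 2 tables. The deposited values are, for each gene in each library, the fraction of reads that the authors assigned to one allele, taken here as 129S. No read counts come with them, so depth is unknown. Per the submitters' processing notes, the build is mm10 and the tools, whose roles are not given, include STAR 2.4.2a and Bowtie2 2.3.2, with edgeR, bedtools, SAMtools and featureCounts. Per the labels' protocols, libraries came from a stranded total RNA kit. How the authors chose the genes of each table is not given in these sources.

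The comparisons used limma 3.58.1 (R 4.3.3). The raw fractions of all libraries in a table entered 1 model of group means without a replicate block, and p-values were adjusted by Benjamini-Hochberg over the genes of the table (threshold 0.05). Errors are standard errors from limma. Groups of 1 library were assumed to vary like the others. The script was tested on simulated data. Python 3.11.15, pandas 2.3.3, numpy 2.4.6 and matplotlib 3.10.9 served for descriptions and plots. No value was missing, and at most 1.11% of values were exactly equal between any 2 replicate libraries. Shared libraries held identical values in both tables. A column that names doxycycline but no time was treated as 24 h.

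The SPOCmut replicate numbers stand for clones, which pair the libraries. Same-clone deviations from the group means correlated across genes at -0.0170 (C10), -0.113 (C2) and 0.148 (G1).

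The 5 genes and the gene lists were chosen with earlier results of these data known. Named genes are the 5, the nearest measured gene on each side, the 2 genes most like each, and from each list the largest and smallest WT change at 24 h and any gene called at 3 h in WT. Alternatives were a logit scale (ratios held between 0.01 and 0.99), trend and robust spread, only the libraries compared, a replicate block, genes with an untreated ratio from 0.2 to 0.8, leaving out each library in turn, and for WT at 24 h the CIZ1 table. The 4 samples of a chromosome 15 transgene line were not used.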

Additional observations from a re-analysis of the deposited data

Results flagged for a closer look

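The response of the 5 enzyme genes to 24 h of doxycycline differed between SpenKO and WT by the test of the difference itself in limma: by 0.308 for Gyk, 0.230 for Pcyt1b, 0.179 for Hprt, 0.176 for Nsdhl and 0.117 for Renbp. All 5 differences held under the 13 alternatives run for each. The response also differed between SPOCmut and WT, by 0.251 for Pcyt1b, 0.168 for Gyk, 0.165 for Renbp, 0.141 for Hprt and 0.106 for Nsdhl, and these held under 15 alternatives each. Over all genes, 76.7% were called in the same direction for SpenKO and 58.5% for SPOCmut, so such differences are not particular to the 5. Both sets of differences rest on the same WT libraries.

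SPOCmut and SpenKO differed from each other in the 24 h response of Gyk, by -0.140, a larger fall in SPOCmut, as was called for 23.0% of all genes. At 3 h the SpenKO response differed from that of WT by 0.152 for Gyk and 0.137 for Nsdhl, with 1 SpenKO library. Both 3 h calls were lost when single libraries were left out.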

How the results depend on the processing

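Of 990 values of the 5 genes under alternatives, 960 stayed on the same side of the threshold, 23 no longer passed and 7 newly passed. Of the 960, 937 also kept their sign and 23 had another sign or were at 0, none of them past the threshold in either fit. Changed calls of a gene stand beside its result, except that of Renbp under the replicate block, and their causes were not tested.

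With only the libraries compared, which leaves fewer degrees of freedom, WT at 3 h had 1 gene called lower and 1 higher, with 0 and 0 of the 5. WT 24 h against 3 h had 0 higher, SpenKO 0 lower at 24 h and 0 at 3 h, SPOCmut 1 higher at 24 h, SPOCmut minus SpenKO 1 higher, SpenKO minus WT at 3 h 0 with 0 of the 5, SPOCmut against WT at 24 h 0 lower, and WT NPC against 24 h 2 higher. On the logit scale SpenKO had 1 gene higher at 3 h, SPOCmut 1 and CIZ1KO 1 at 24 h, SpenKO minus WT at 3 h 4 with 1 of the 5, and CIZ1KO against WT NPC 27 lower and 84 higher with 4 of the 5. With trend and robust spread, SpenKO minus WT at 3 h called 1 of the 5, and CIZ1KO 1 gene higher at 24 h.

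Without 1 library at a time, WT at 3 h gave 8 to 13 genes higher (0 to 0 of the 5) and SPOCmut minus SpenKO 41 to 58 lower, against 62 with all libraries. SpenKO minus WT at 3 h gave 2 to 6 higher, 0 to 2 of the 5, and 0 to 2 lower. Counts ran from 0 to 1 for genes higher in WT at 24 h against 0 h and 3 h, in SpenKO at 24 h and in SPOCmut at 24 h (0 to 1 of the 5). They also ran from 0 to 1 for genes lower in SpenKO at 3 h, in SpenKO minus WT at 24 h, in SpenKO and SPOCmut against WT at 24 h and in CIZ1KO against WT untreated. SpenKO at 24 h gave 0 to 2 lower, CIZ1KO at 24 h 0 to 2 higher, CIZ1KO minus WT 0 to 2 lower, and CIZ1KO against WT untreated 0 to 3 higher.

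The replicate block used the number within a line (clone for SPOCmut). Numbers of WT, SpenKO and CIZ1KO share only a number: same-number deviations correlated at -0.0883 to 0.161 in WT, 0.112 in SpenKO and -0.107 in CIZ1KO. With the replicate block, 2 of 70 calls of the 5 genes changed: Renbp at 3 h in WT (adjusted p = 0.0835), leaving 0 of the 5 higher, and Nsdhl in SPOCmut minus SpenKO, giving 2 of the 5 lower. SpenKO at 24 h had 0 genes lower with it. No paired analysis was possible because of lone libraries for NPC and SpenKO at 3 h, nor for SPOCmut against WT at one time. A fit with only the libraries compared could not be made for CIZ1KO against WT NPC. Depth limits precision to an unknown degree, since no counts are given.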
